A study of Mus musculus with 44 samples.

Results

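The Nr4a nuclear receptor genes are the 3 genes carrying the symbols Nr4a1, Nr4a2 and Nr4a3 (Entrez gene IDs 15370, 18227 and 18124). They were taken by name from the 27179 genes counted in mouse dorsal hippocampus, and all 3 passed the filter on low counts in every comparison. The mutant mice were homozygous for Kdm5b ΔARID, an allele of this histone H3K4 demethylase gene in which exons 2 to 4 are missing. The protein made from it has no ARID domain and only part of the JmjN domain. WT and mutant mice were F2 animals of a cross between C57BL/6J and 129S2/Sv, aged 7 to 8 weeks when tissue was taken. Animals of each genotype were either taken at baseline (0 h) or killed 1 h or 3 h after contextual fear conditioning with 3 shocks of 0.7 mA, which gave 6 groups of 6 libraries, 1 mouse each, with 3 labelled male and 3 labelled female. The comparisons ask how strongly each member responded to training, how long the response lasted, and whether Kdm5b mutation altered it. Trained mice were compared with test-naive mice from the home cage, so learning, shock and exposure to the chamber cannot be told apart.

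Nr4a proteins are nuclear receptors for which no physiological ligand is established, so their activity follows mainly from how much protein is made. Nr4a1 (Nur77), Nr4a2 (Nurr1) and Nr4a3 (Nor1) bind the same short DNA element, the NBRE, as monomers, and Nr4a1 and Nr4a2 can also pair with the retinoid X receptors. In neurons their genes are immediate early genes: calcium and cAMP signalling through CREB, MEF2 and SRF switches them on within minutes without new protein synthesis. In the hippocampus they are known for their part in the transcription that follows learning and for their role in long-term memory, and Nr4a2 is also known for the development and upkeep of midbrain dopamine neurons.

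Nr4a1 lies on the plus strand at chr15:101253902-101274795, Nr4a2 on the minus strand at chr2:57106830-57124003 and Nr4a3 on the plus strand at chr4:48045078-48086447 (GRCm38, RefSeq). The 5′ end of Nr4a2 overlaps a predicted RefSeq locus, LOC105244150, that was not counted, so reads from that stretch may be shared or lost. The 250 bases upstream of 1 RefSeq start site of each member, at position 101266846 for Nr4a1, 57124003 for Nr4a2 and 48045305 for Nr4a3, were searched on both strands for the CRE bound by CREB (TGACGTCA), its core TGACG, the NBRE (AAAGGTCA) and the CArG box bound by SRF. The sites used for Nr4a1 and Nr4a3 lie inside the loci given above, which begin at start sites further upstream, and those were not searched. The whole Nr4a2 window lies within the predicted locus LOC105244150 (chr2:57123334-57124694). None of the 3 windows held a full CRE, an NBRE or a CArG box, which 1.55%, 1.34% and 1.47% of 32851 promoter windows of the same length held. Each of the 3 windows held 4 CRE cores. At least 1 core was present in 17.8% of all windows, and 4 or more in 45 windows (0.137%). The cores are shown because they are the feature that the 3 upstream regions have in common, in capitals within 5 flanking bases on each side, 5′ to 3′ on the strand of the gene, with TGACG in capitals where the core is on that strand and CGTCA where it is on the other one.
Nr4a1 at chr15:101266608-101266622, plus strand: ccctgCGTCAatgga
Nr4a1 at chr15:101266628-101266642, plus strand: gcgtgCGTCAcgcgc
Nr4a1 at chr15:101266772-101266786, plus strand: gtgtgCGTCAgtggc
Nr4a1 at chr15:101266801-101266815, plus strand: ccatgCGTCAcggag
Nr4a2 at chr2:57124194-57124208, minus strand: gccggCGTCActggc
Nr4a2 at chr2:57124138-57124152, minus strand: gcacgCGTCAcggag
Nr4a2 at chr2:57124105-57124131, minus strand: cgggcTGACGgggccgcTGACGcgctt
Nr4a3 at chr4:48045069-48045083, plus strand: gagggTGACGtagcg
Nr4a3 at chr4:48045087-48045109, plus strand: catgtCGTCAcatTGACGtctcg
Nr4a3 at chr4:48045153-48045167, plus strand: ataaaTGACGtgccg
In Nr4a1 the cores lay between 31 and 238 bases upstream of the start site, flanks included, all of them read as CGTCA. In Nr4a2 they lay between 102 and 205 bases and in Nr4a3 between 138 and 236 bases upstream. Binding was not measured in these libraries, and the matches describe letters only.

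Total counts ran from 40274435 to 107000233 per library. Summed markers of dentate granule cells (312 to 622 CPM, counts scaled to library size), CA1 pyramidal cells (482.3 to 886 CPM) and CA3 pyramidal cells (107 to 190 CPM) were present in every library, as the labelled tissue requires. Kdm5b itself was measured at 86.4 ± 2.84 CPM (SD, n = 6) in WT and 80.5 ± 3.89 CPM in mutant mice at 0 h. Its count covers the whole gene and so does not check the deletion. In 2 libraries the sex transcripts went against the label: the library labelled WT 1 h male 1 held 51186 Xist counts and 0 counts on Y-linked genes, and the library labelled mutant 3 h female 2 held 36 Xist counts and 10239 counts on Y-linked genes. Both were kept under their labels, and the members' results that rest on either one are given with and without it, because both stood at the edge of their groups for Nr4a1 and Nr4a3. Whether the genotype and time labels of these 2 libraries hold was not checked. Each mean and test of WT at 1 h and of mutants at 3 h that includes them rests on those labels. The library labelled mutant 3 h female 2 also had the highest summed markers of oligodendrocytes (10090 CPM against a median of 6229) and of thalamus (197 CPM against a median of 73.6) of the 36 libraries. The same held for its markers of midbrain dopamine neurons (23.45 CPM against a median of 15.61). The library labelled WT 1 h male 1 had the highest of subiculum and entorhinal neurons (278 CPM against a median of 231.5). The part of these markers in the Nr4a levels was not tested.

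By group mean, Nr4a1 was the most abundant member per length of transcript in every group. Scaled by TMM and divided by the bases covered by its exons, its mean level at baseline was 19.1 ± 3.14 CPM per kb (SD, n = 6) in WT and 21.0 ± 5.98 in mutant mice. Nr4a2 stood at 14.4 ± 2.86 and 12.3 ± 1.98 CPM per kb in these 2 groups. Nr4a3 was lowest, at 7.08 ± 1.20 and 6.26 ± 1.28 CPM per kb. At 1 h the order was the same, with Nr4a1 at 35.1 ± 5.60, Nr4a2 at 20.3 ± 1.85 and Nr4a3 at 9.10 ± 0.713 CPM per kb in mutant mice. In mutants at 3 h Nr4a1 stood at 21.1 ± 10.7 and Nr4a2 at 16.3 ± 2.16 CPM per kb. Without the library labelled mutant 3 h female 2 (n = 5) these means were 17.1 ± 4.52 and 16.4 ± 2.40, closer than the spread of the libraries. For each member the 2 groups killed at 1 h had the highest mean CPM of the 6 groups. None of the steps between neighbouring groups in the order of means exceeded the larger SD of the pair for any member, the largest step being 36.9 CPM for Nr4a1, between WT at 1 h and mutants at 3 h. Because whole tissue was sequenced, fewer cells with a transcript and less transcript per cell cannot be told apart.

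**Figure D1:**
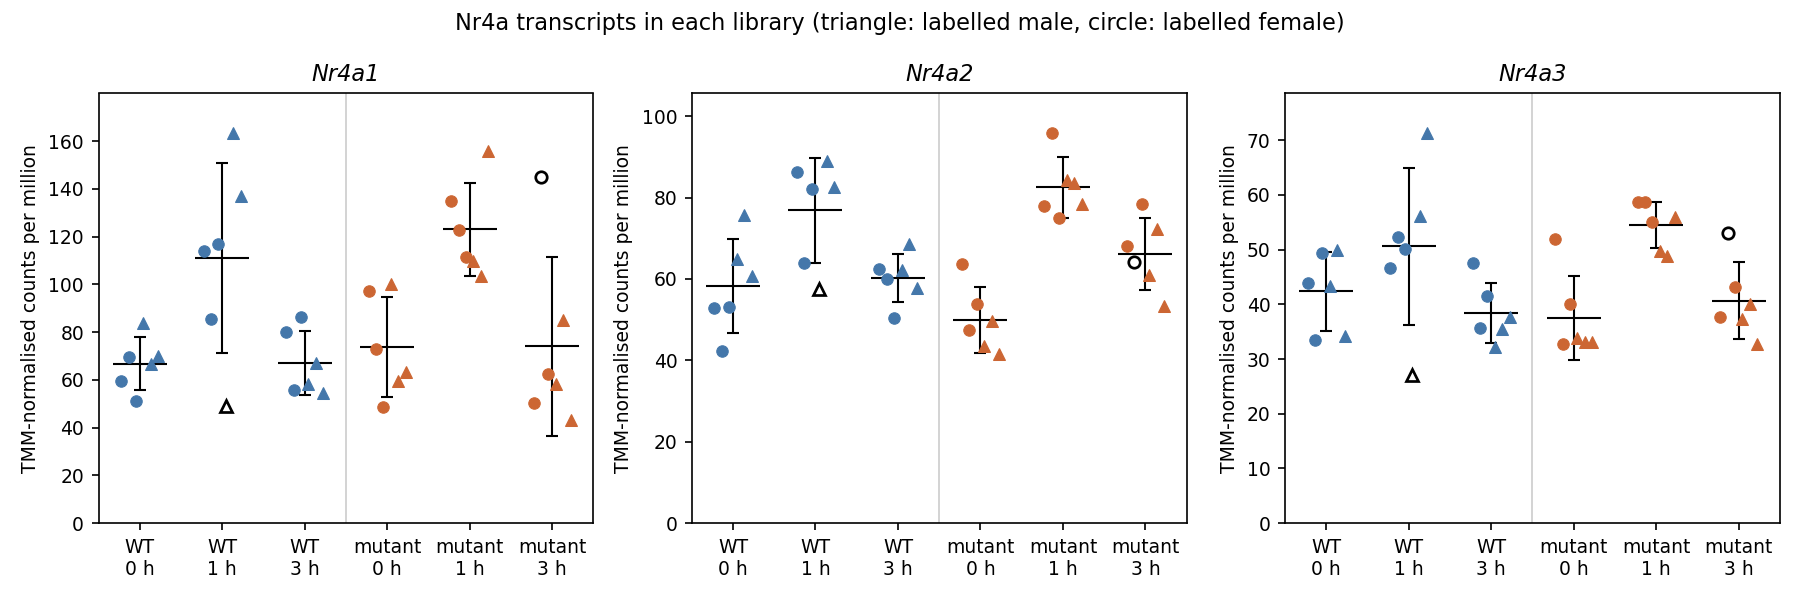
TMM-normalised CPM of Nr4a1, Nr4a2 and Nr4a3 in the 36 libraries, by genotype and time after training. Horizontal lines and bars give the mean and SD of 6 libraries, triangles are labelled male and circles labelled female, and open symbols are the 2 libraries whose sex transcripts went against the label. The open triangle in the WT 1 h group lies at 48.9 CPM for Nr4a1 and the open circle in the mutant 3 h group at 145 CPM, each away from the rest of its group.

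In WT mice the 3 transcripts were higher 1 h after training than at baseline by 1.66-fold for Nr4a1, 1.33-fold for Nr4a2 and 1.19-fold for Nr4a3, and none of these differences passed the test across all genes with all 12 libraries. Nr4a1 ran from 51.2 to 83.9 CPM at 0 h (median 68.1) and from 48.9 to 164 CPM at 1 h (median 116). In 5 of the 6 libraries at 1 h it was above every library at 0 h, and in the sixth, labelled WT 1 h male 1, it was below every one of them. Nr4a2 ran from 42.3 to 75.8 CPM at 0 h (median 56.8) and from 57.6 to 89.0 CPM at 1 h (median 82.3). The groups overlapped, and 4 of 6 libraries at 1 h were above all those at 0 h. Nr4a3 ran from 33.4 to 50.0 CPM at 0 h (median 43.6) and from 27.1 to 71.4 CPM at 1 h (median 51.2). It too was above every baseline library in 4 of 6 libraries, with the same library labelled WT 1 h male 1 lowest. On the log2 scale the differences were 0.73 ± 0.25 (SE) for Nr4a1, 0.41 ± 0.13 for Nr4a2 and 0.25 ± 0.20 for Nr4a3. The quasi-likelihood test of edgeR gave adjusted p-values of 0.922, 0.922 and 0.942, and unadjusted p-values of 0.0150, 0.00958 and 0.242. In this comparison edgeR called 0 of 17319 genes (0%), 928 had an unadjusted p under 0.05, and DESeq2 called 7 genes, no member among them.

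Without the library labelled WT 1 h male 1, Nr4a1 rose by 0.91 ± 0.11 on the log2 scale in WT mice at 1 h, with an adjusted p of 0.0408, and its groups no longer overlapped (85.7 to 164 CPM in 5 libraries against 51.2 to 83.9 in 6). It was then 1 of 3 genes called out of 17439 (0.0172%), together with Fosb and Dnajb5, which were looked up after the call. Nr4a2 and Nr4a3 differed by 0.52 ± 0.10 and 0.39 ± 0.13, with adjusted p-values of 0.183 and 0.616. Leaving out any other single library of this comparison gave no call for a member. The difference had the same sign in both labelled sexes for each member. With all libraries it was 0.49 in males and 0.81 in females for Nr4a1, 0.17 and 0.64 for Nr4a2, and 0.18 and 0.25 for Nr4a3. When the library labelled WT 1 h male 1 was left out, the male values were 1.03, 0.36 and 0.59, above the female value for Nr4a1 and Nr4a3 and below it for Nr4a2.

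In mutant mice Nr4a2 and Nr4a3 rose 1 h after training, by 1.66-fold and 1.46-fold, and Nr4a1 was 1.67-fold higher without passing the test. Nr4a2 ran from 41.6 to 63.8 CPM at 0 h (median 48.6) and from 74.9 to 96.0 CPM at 1 h (median 81.1). Its groups did not overlap. Nr4a3 ran from 32.7 to 52.0 CPM at 0 h (median 33.5) and from 48.8 to 58.7 CPM at 1 h (median 55.5). The groups overlapped through a single baseline library, labelled mutant 0 h female 1, whose 52.0 CPM was above 2 libraries at 1 h. Nr4a1 ran from 48.7 to 100 CPM at 0 h (median 68.1) and from 103 to 156 CPM at 1 h (median 117). These groups did not overlap either, but the baseline libraries were more widely spread than for the other members. The log2 differences were 0.73 ± 0.087 for Nr4a2 (adjusted p = 0.00467), 0.55 ± 0.088 for Nr4a3 (adjusted p = 0.0185) and 0.74 ± 0.19 for Nr4a1 (adjusted p = 0.171). With 2 of 3 members called, this comparison had 54 genes called of 17282 (0.312%), 52 higher and 2 lower, and Nr4a2 ranked 5 and Nr4a3 ranked 28 by p-value. Among the summed markers of tissue around and within the dissected area, those of thalamus and striatum stood higher in these baseline mice than at 1 h: thalamus at a median of 99.7 CPM (64.4 to 127) against 72.1 CPM (53.7 to 111), and striatum at 43.6 CPM (33.3 to 69.1) against 34.4 CPM (25.5 to 41.8). So did those of midbrain dopamine neurons, at 16.5 CPM (13.83 to 20.44) against 13.96 CPM (11.49 to 15.86). Those of subiculum and entorhinal neurons went the other way, at 231.1 CPM (207.8 to 274.8) against 264.8 CPM (210.9 to 275.1), as did those of CA1 pyramidal cells, at 604.3 CPM (482.3 to 725.0) against 667.3 CPM (527.8 to 782.6). Median sums were also higher at 1 h for dentate granule cells (410.3 against 450.0 CPM) and neocortex (141.8 against 153.3 CPM). Over the 36 libraries, which share time points and dissection, the striatum sum had an r of -0.349 with Nr4a2 and -0.393 with Nr4a3, the thalamus sum -0.248 and 0.024, and the midbrain dopamine sum -0.21 and -0.069. The subiculum and entorhinal sum had an r of 0.334 and -0.162 with them, and the CA1 sum 0.413 and 0.26. Choroid plexus markers ran from 42.2 to 7910 CPM over the 36 libraries, with an r between -0.044 and 0.059 with the 3 members. The part of these markers in the rise was not tested. The difference was positive in both labelled sexes, at 0.74 in males and 0.81 in females for Nr4a1, 0.87 and 0.59 for Nr4a2, and 0.63 and 0.49 for Nr4a3.

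The call of Nr4a2 held with each of the 12 libraries left out in turn (adjusted p from 0.000361 to 0.0183). That of Nr4a3 was lost without the libraries labelled mutant 0 h male 3, mutant 0 h female 3 or mutant 1 h male 3 (adjusted p of 0.0671, 0.0576 and 0.0510), without the sex covariate (0.0585) and with all 36 libraries in a single fit (0.110). DESeq2 called all 3 members, with an adjusted p of 0.0186 for Nr4a1, among 367 genes called of 22459 (1.63%).

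By 3 h the level of Nr4a1 was back near baseline in both genotypes, while Nr4a2 in mutant mice was still 1.33-fold above baseline, a difference that did not pass the main test. In WT mice Nr4a1 ran from 54.4 to 86.4 CPM at 3 h (median 62.9), Nr4a2 from 50.5 to 68.6 CPM (median 61.0) and Nr4a3 from 32.2 to 47.6 CPM (median 36.6). All 3 ranges overlapped those at 0 h. The log2 differences from baseline in WT were 0.0011 ± 0.14 for Nr4a1, 0.062 ± 0.090 for Nr4a2 and -0.15 ± 0.12 for Nr4a3, with adjusted p-values of 1, 0.924 and 0.814. By edgeR 0 of 17438 genes (0%) were called here, 1436 had an unadjusted p under 0.05, and DESeq2 called 62 genes but no member.

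In mutant mice at 3 h Nr4a2 ran from 53.3 to 78.4 CPM (median 66.1). All 6 libraries were above the baseline mean of 50.0 CPM, and 4 of them were above every baseline library. In the same 2 groups the summed thalamus markers had medians of 68.0 CPM at 3 h and 99.7 CPM at baseline, those of striatum 39.8 and 43.6 CPM, and those of neocortex 134.7 and 141.8 CPM. Higher at 3 h were the medians of choroid plexus (1469 against 191.0 CPM), dentate granule cells (465.8 against 410.3), CA1 pyramidal cells (631.3 against 604.3), and subiculum and entorhinal neurons (246.3 against 231.1). The part of these markers in the Nr4a2 levels was not tested. Nr4a3 ran from 32.8 to 53.1 CPM at 3 h (median 38.9) and Nr4a1 from 43.3 to 145 CPM (median 60.4). Both ranges overlapped those at baseline, and the highest value of each was that of the library labelled mutant 3 h female 2. The log2 difference from baseline was 0.41 ± 0.090 for Nr4a2, which ranked 25 of 17285 genes by p-value (unadjusted p = 0.000589, adjusted p = 0.280). It was 0.12 ± 0.11 for Nr4a3 (adjusted p = 0.829) and -0.013 ± 0.31 for Nr4a1 (adjusted p = 0.997). By edgeR 0 of the 17285 genes (0%) were called in this comparison, the smallest adjusted p of any gene was 0.253, and 1481 genes had an unadjusted p under 0.05. DESeq2 called Nr4a2 with a log2 difference of 0.41 and an adjusted p of 0.00844, among 127 genes called of 22435 (0.566%). When the library labelled mutant 3 h female 2 was left out, the edgeR difference was 0.44 ± 0.093 for Nr4a2 (adjusted p = 0.131), 0.060 ± 0.10 for Nr4a3 and -0.31 ± 0.24 for Nr4a1.

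Between 1 h and 3 h all 3 members were lower in both genotypes. In WT the log2 difference was -0.73 ± 0.26 for Nr4a1, -0.35 ± 0.11 for Nr4a2 and -0.40 ± 0.19 for Nr4a3, with adjusted p-values of 0.583, 0.527 and 0.679. None of the 6 libraries at 3 h was above the 1 h mean for any member. In mutants it was -0.75 ± 0.28 for Nr4a1, -0.32 ± 0.083 for Nr4a2 and -0.43 ± 0.077 for Nr4a3, with adjusted p-values of 0.551, 0.383 and 0.245. In 5 of the 6 mutant libraries at 3 h each member was below every library at 1 h, the exception for Nr4a1 and Nr4a3 being the library labelled mutant 3 h female 2. By edgeR 0 of 17388 genes (0%) in WT and 0 of 17247 genes (0%) in mutants were called, against 1288 and 1387 genes with an unadjusted p under 0.05 and 62 and 80 genes called by DESeq2.

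Without the library labelled mutant 3 h female 2, Nr4a3 fell by 0.50 on the log2 scale between 1 h and 3 h in mutants (SE 0.061, adjusted p = 0.00619), among 18 genes called of 17367 (0.104%). Nr4a1 then differed by -1.04 ± 0.18 (adjusted p = 0.0751) and its groups no longer overlapped (43.3 to 85.0 CPM in 5 libraries at 3 h against 103 to 156 in 6 at 1 h). DESeq2 called Nr4a2 and Nr4a3 with all libraries (adjusted p of 0.0438 and 0.000574), among its 80 genes called of 22361 (0.358%). In WT without the library labelled WT 1 h male 1 the differences were -0.88 ± 0.18, -0.44 ± 0.082 and -0.53 ± 0.12, with adjusted p-values of 0.182, 0.132 and 0.224.

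**Figure D2:**
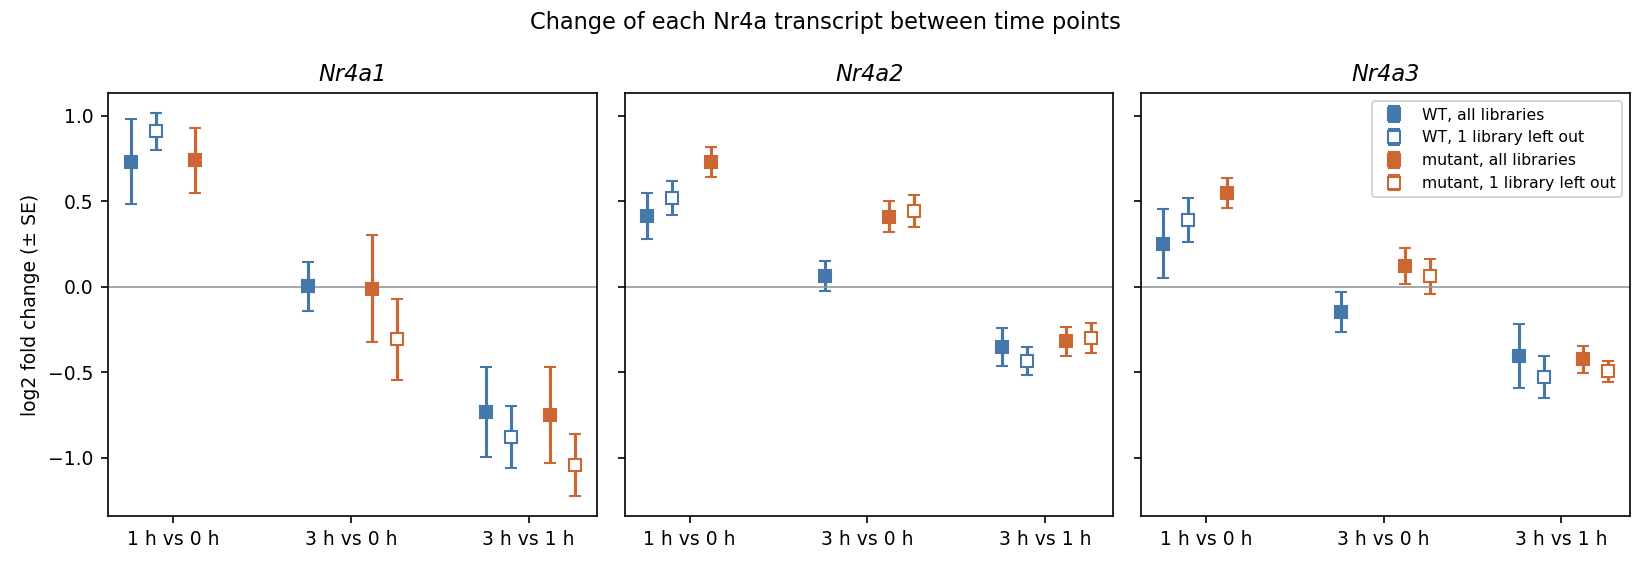
Log2 fold change with its standard error (edgeR) of each Nr4a transcript between time points, in WT (blue) and mutant (orange) mice. Filled squares use all 12 libraries of a comparison and open squares leave out the library whose sex transcripts went against the label. Nr4a1 stands at 0.73 in WT and 0.74 in mutants for 1 h against 0 h, and for 3 h against 0 h Nr4a2 in mutants stands at 0.41 where it is 0.062 in WT.

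How long the rise lasted can be put as the share of the 1 h rise in mean CPM that was still present at 3 h, a ratio of group means that has no test. For Nr4a1 it was 0.4% in WT and 0.8% in mutants. The mutant value rests on the library labelled mutant 3 h female 2, without which the mean at 3 h was below that at 0 h and the share was -28.0%. For Nr4a2 it was 10.6% in WT and 49.7% in mutants. With each library left out in turn it ran from -8.0% to 24.8% in WT and from 42.2% to 57.6% in mutants. These ranges do not overlap, but they leave out sampling error and carry no test, so they do not show a difference between the genotypes. The rise in WT on which the share rests did not pass its test. For Nr4a3 it was -48.9% in WT, where the rise at 1 h was small and the 3 h mean was below baseline, and 18.9% in mutants, or 4.3% without the library labelled mutant 3 h female 2. Single libraries moved the WT value of Nr4a3 from -98.8% to -25.6%. Taken from mean log2 values in place of mean CPM, the shares in WT and mutants were -0.5% and -9.0% for Nr4a1, 16.2% and 55.7% for Nr4a2, and -63.1% and 22.2% for Nr4a3.

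The response was not shown to differ between the genotypes. The genotype difference in the change from 0 h to 1 h, mutant minus WT on the log2 scale, was 0.0076 ± 0.32 for Nr4a1, 0.32 ± 0.18 for Nr4a2 and 0.29 ± 0.23 for Nr4a3. From 0 h to 3 h it was 0.0072 ± 0.35 for Nr4a1, 0.36 ± 0.17 for Nr4a2 and 0.27 ± 0.17 for Nr4a3, and the unadjusted p of 0.0516 for Nr4a2 was the smallest of the 9 interaction tests of the members. From 1 h to 3 h it was -0.0033 ± 0.38, 0.034 ± 0.15 and -0.015 ± 0.21. The adjusted p-value was at least 0.996 in all 9 tests, and edgeR called 0 of 17907, 0 of 17926 and 0 of 17911 genes (0%) in the 3 interactions, where 677, 273 and 801 genes had an unadjusted p under 0.05 and DESeq2 called 2, 0 and 0. Without the 2 libraries that went against their labels the Nr4a2 values were 0.25 ± 0.17, 0.37 ± 0.18 and 0.11 ± 0.14, those of Nr4a3 were 0.16 ± 0.18, 0.21 ± 0.16 and 0.022 ± 0.15, and the sign for Nr4a1 turned to negative in the changes to 1 h (-0.15 ± 0.24) and to 3 h (-0.30 ± 0.28).

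Within a time point no member differed between genotypes beyond the spread of the libraries. At 0 h the mutant minus WT difference was 0.14 ± 0.18 for Nr4a1, -0.22 ± 0.14 for Nr4a2 and -0.19 ± 0.13 for Nr4a3 (adjusted p of 0.951, 0.871 and 0.877), and for Nr4a3 3 of 6 mutant libraries were below every WT library. The summed thalamus and striatum markers of these groups had medians of 99.7 and 43.6 CPM in mutants and 69.97 and 31.7 CPM in WT. Those of choroid plexus had medians of 191.0 CPM (64.75 to 2590) in mutants and 2085 CPM (45.19 to 5751) in WT, and at 1 h of 124.1 and 1035 CPM. The part of these markers in the genotype differences was not tested. In labelled males alone the baseline difference of Nr4a2 was -0.58 and in labelled females 0.15, a contrast of sexes that was not tested. At 1 h the differences were 0.15 ± 0.26, 0.10 ± 0.11 and 0.11 ± 0.18 for Nr4a1, Nr4a2 and Nr4a3, and at 3 h 0.13 ± 0.26, 0.13 ± 0.092 and 0.083 ± 0.090, with adjusted p-values between 0.846 and 0.948. Without the libraries that went against their labels the 1 h values were -0.0071 ± 0.15, 0.029 ± 0.084 and -0.021 ± 0.099, and the 3 h values -0.14 ± 0.19, 0.15 ± 0.099 and 0.020 ± 0.080. By edgeR 0 of 17336 genes (0%) at 0 h, 0 of 17261 (0%) at 1 h and 2 of 17394 (0.0115%) at 3 h were called. The last 2 were Utp14b and Dach1, looked up after the call. At 0 h, 1 h and 3 h 1066, 1487 and 1107 genes had an unadjusted p under 0.05, and DESeq2 called 16, 100 and 51 genes. The counts over all genes moved with single libraries: leaving out WT 1 h male 1 gave 41 edgeR calls of 17375 genes in the 1 h comparison, and leaving out mutant 3 h female 2 gave 18 of 17516 in the 3 h one. The 2 calls at 3 h fell to 0 with the replicate block and without any 1 of 5 other libraries, labelled WT 3 h male 3, WT 3 h female 1, WT 3 h female 2, mutant 3 h male 2 and mutant 3 h male 3, and at 0 h leaving out mutant 0 h male 1 gave 5 calls. The block gave 5 calls at 1 h. No member was among them.

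The members were also compared with each other inside each library, as the log2 ratio of their CPM, in 18 two-sided exact permutation tests over every assignment of the libraries (3 pairs of members, 3 time comparisons and 2 genotypes). With all libraries none passed after adjustment over the 18 tests. The ratio of Nr4a2 to Nr4a3 in mutants was 0.42 ± 0.12 (SD, n = 6) at 0 h and 0.71 ± 0.23 at 3 h, a difference of 0.29 (exact p = 0.0260, adjusted 0.279), with 5 of 6 libraries at 3 h above all those at 0 h. The ratio of Nr4a1 to Nr4a2 in mutants was 0.57 ± 0.28 at 1 h and 0.048 ± 0.60 at 3 h, a difference of -0.52 (exact p = 0.0931, adjusted 0.279), with 5 of 6 libraries at 3 h below all those at 1 h. In both cases the remaining library was the one labelled mutant 3 h female 2. Without it the differences were 0.37 and -0.74, both with an exact p of 0.00216 (the smallest these permutations can give) and an adjusted p of 0.0195. In WT the ratio of Nr4a2 to Nr4a3 was 0.45 ± 0.26 at 0 h and 0.66 ± 0.28 at 3 h, a difference of 0.20 (exact p = 0.225, adjusted 0.440). The ratio of Nr4a1 to Nr4a2 in WT was 0.45 ± 0.38 at 1 h and 0.14 ± 0.36 at 3 h, a difference of -0.32 in the same direction as in mutants (exact p = 0.171, adjusted 0.385), or -0.45 without the library labelled WT 1 h male 1 (exact p = 0.0325, adjusted 0.117). Whether the change in a ratio differed between the genotypes was not tested.

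**Figure D3:**
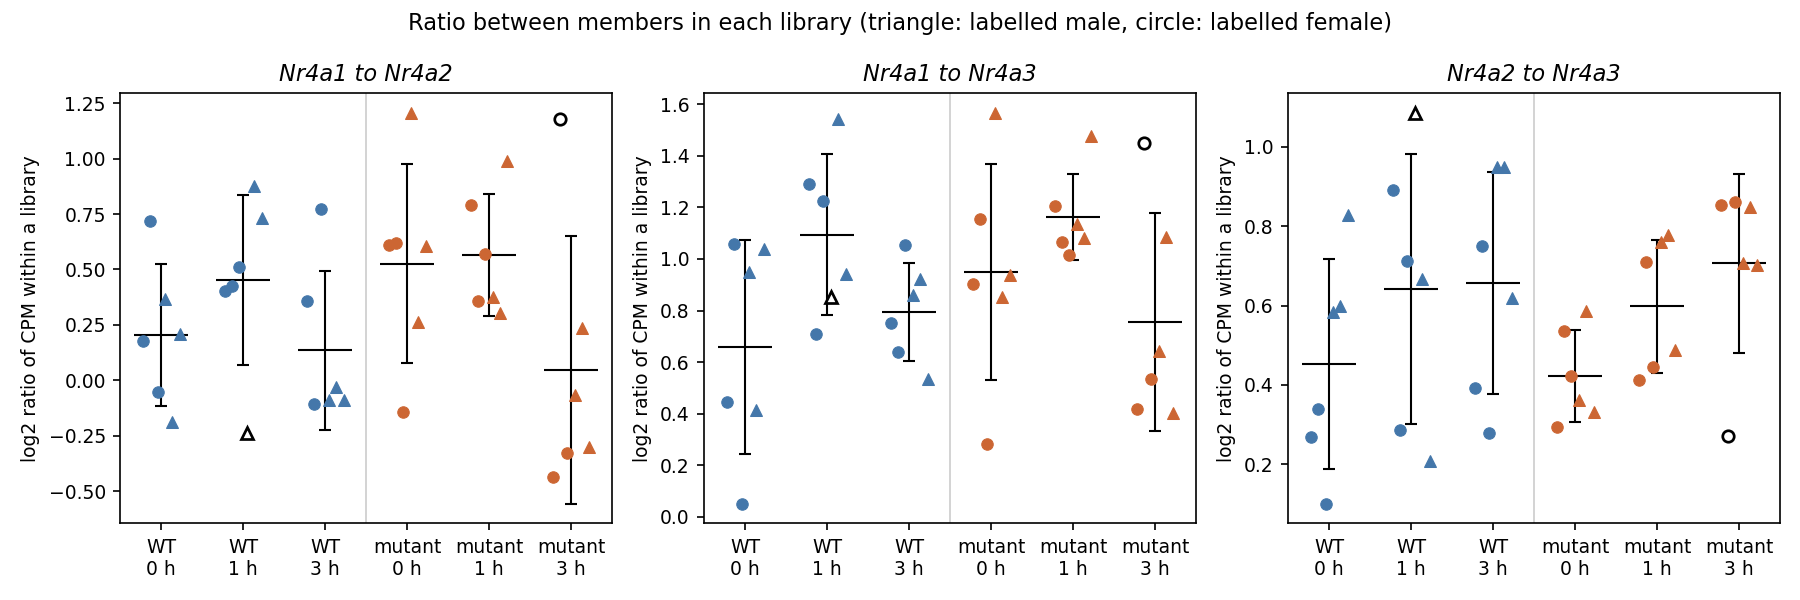
Log2 ratio of the CPM of 2 members within a library, for Nr4a1 to Nr4a2, Nr4a1 to Nr4a3 and Nr4a2 to Nr4a3, by genotype and time. Lines and bars give mean and SD of 6 libraries, and open symbols are the 2 libraries whose sex transcripts went against the label. In mutants 5 of 6 libraries at 3 h lie below all those at 1 h for Nr4a1 to Nr4a2.

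The genes whose log2 CPM over the 36 libraries was most like that of each member were shared in part: Egr1 and Egr2 were among the first 5 for both Nr4a1 and Nr4a3, and none of the first 5 for Nr4a2 was among those of the other members. This is a ranking by Pearson's r among 14312 genes with a mean of at least 1 CPM, in which the libraries share time points and any difference in tissue, and it carries no test. For Nr4a1 the first 5 were Arc, which encodes a cytoskeletal protein of active synapses (r = 0.954), and the transcription factor genes Junb (0.942), Egr1 (0.941), Egr2 (0.930) and Egr4 (0.913). For Nr4a2 they were Fosl2, a member of the AP-1 family (0.866), Homer1, which encodes a postsynaptic scaffold (0.798), Fosb (0.764), the chaperone gene Dnajb5 (0.727) and Rbm38 (0.726), which encodes an RNA-binding protein. For Nr4a3 they were Dusp6 (0.820) and Spry4 (0.813), both inhibitors of ERK signalling, Arl5b (0.80), Egr2 (0.799) and Egr1 (0.795). After the mean of each group was subtracted, all 5 genes of Nr4a1 stayed among its first 5, with Arc at 0.938. Fosb and Dnajb5 fell to ranks 221 and 414 for Nr4a2, at 0.406 and 0.359. For Nr4a3, Egr2 and Egr1 fell to ranks 9 and 11, at 0.679 and 0.675, so they were not shared among the first 5 within groups. Among themselves, Nr4a1 and Nr4a3 had an r of 0.750, Nr4a2 and Nr4a3 0.700, and Nr4a1 and Nr4a2 0.596, or 0.624, 0.532 and 0.348 within groups.

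**Figure D4:**
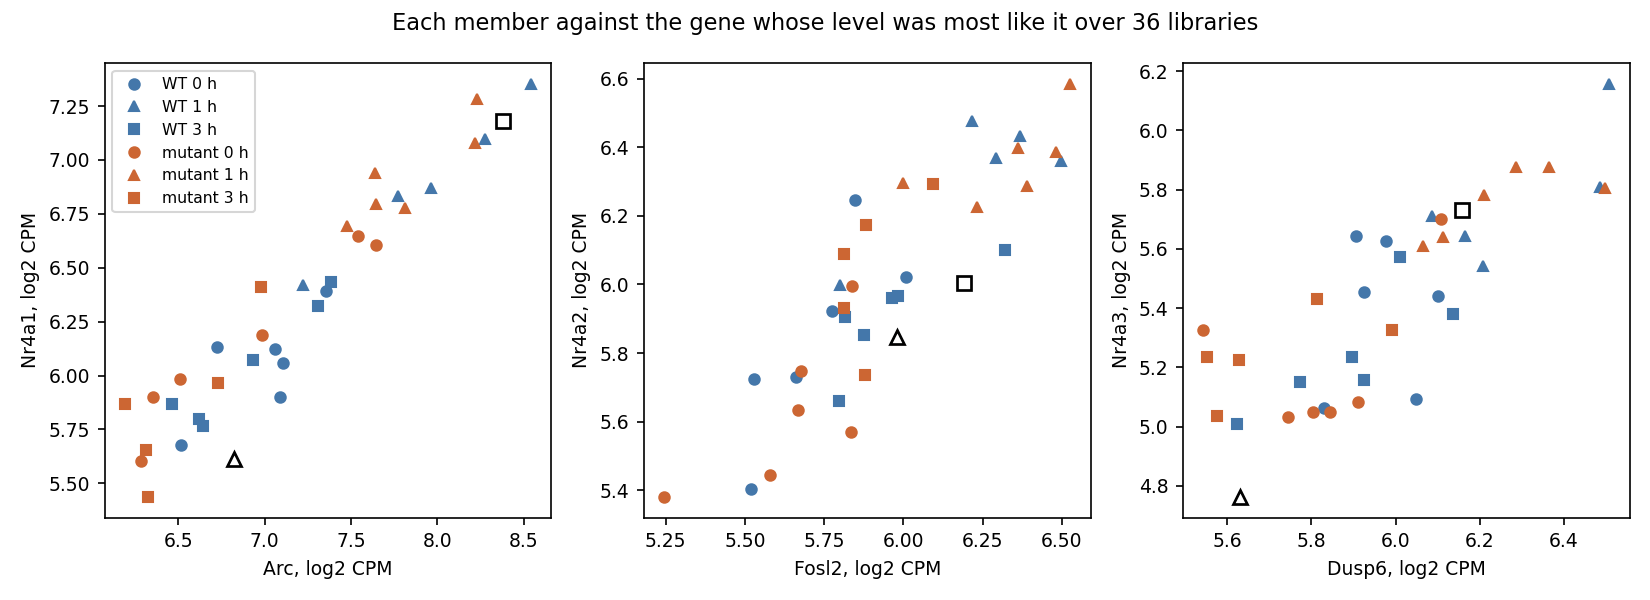
Log2 CPM of each member against the gene with the highest Pearson's r to it over the 36 libraries: Arc for Nr4a1 (0.954), Fosl2 for Nr4a2 (0.866) and Dusp6 for Nr4a3 (0.820). Colour marks genotype, symbol shape marks time, and open symbols are the 2 libraries whose sex transcripts went against the label.

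The other genes of the Nr4a pathway were described by lists whose members were chosen with earlier results of these data known. Among the upstream regulators, Srf, which encodes the factor that binds CArG boxes, was the 1 gene of 22 called at 1 h in mutants, where 0.312% of all genes were called, and it rose by 0.24 ± 0.043 (adjusted p = 0.0255) from 78.8 ± 4.002 to 93.3 ± 4.23 CPM. The list median was 0.066, beside -0.006 over all genes tested. Crem, which encodes a relative of CREB, differed by 0.17 ± 0.065 (adjusted p = 0.329). In WT at 1 h 0 of 22 were called and the median was 0.065. Among 15 partners and cofactors 0 were called in any comparison. In mutants at 1 h the retinoid X receptor genes Rxra, Rxrb and Rxrg differed by 0.18 ± 0.055, 0.050 ± 0.042 and -0.27 ± 0.23 (adjusted p of 0.225, 0.711 and 0.720). Rxra stood at 34.6 ± 2.48 CPM in baseline mutants and 39.1 ± 2.18 CPM in mutants killed at 1 h, and at 35.4 ± 2.704 and 36.2 ± 4.17 CPM in WT.

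Of the 46 other nuclear receptor genes, 34 passed the filter in mutants at 1 h and 1 rose beside the 0.312% of all genes, Rara, which encodes a retinoic acid receptor, from 19.8 ± 1.94 to 27.0 ± 2.56 CPM (log2 difference 0.44 ± 0.077, adjusted p = 0.0220). Their median was 0.047. At 3 h in mutants Rara differed from baseline by 0.11 ± 0.094 (adjusted p = 0.813), and in WT at 1 h by 0.20 ± 0.12 (adjusted p = 0.926).

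Of 20 rapid activity-induced genes, all tested, 6 rose in mutants at 1 h, beside 54 of 17282 genes (0.312%) in all: Fosb, Gadd45b, Egr3, Per1, Egr1 and Egr4. The median of the list was 0.61 on the log2 scale, below the 0.73 of Nr4a2 and above the 0.55 of Nr4a3. Fosb, which encodes an AP-1 subunit, rose most among those 6, by 1.37 ± 0.092 (adjusted p = 7.84e-06), and Egr4 rose by 1.04 ± 0.16 (adjusted p = 0.0199). Fos and Arc, at 1.31 ± 0.32 and 0.88 ± 0.29, were not called (adjusted p of 0.145 and 0.280), and both were spread at baseline, at 11.6 ± 6.22 and 127 ± 54.1 CPM (SD, n = 6). In WT at 1 h 0 of 20 were called, the median was 0.55 and 13 had an unadjusted p under 0.05, all higher, beside 928 of 17319 genes in all. When the library labelled WT 1 h male 1 was left out, Fosb was called there (1.46 ± 0.18, adjusted p = 0.0408) and the median was 0.61. At 3 h 0 were called in either genotype, and the medians against baseline were 0.073 in WT and 0.15 in mutants, or -0.055 in mutants without the library labelled mutant 3 h female 2. Fosb and Egr3, at 0.89 ± 0.17 and 0.36 ± 0.097 in mutants and 0.57 ± 0.20 and 0.32 ± 0.077 in WT, had, like Nr4a2 in mutants, values above baseline at 3 h that were not called (adjusted p from 0.280 to 0.506). Between 1 h and 3 h 0 of the 20 were called in either genotype with all libraries, and in mutants without the library labelled mutant 3 h female 2, where Nr4a3 fell, 3 fell with it, beside 18 of 17367 genes (0.104%) in all: Fos, Gadd45b and Dusp1. Of 20 later activity-induced genes, Homer1 was the 1 gene called at 1 h in mutants (0.312% of all genes), where it rose by 0.32 ± 0.058 (adjusted p = 0.0279), and the list median was 0.20. Between 1 h and 3 h 0 of these 20 were called in either genotype with all libraries, and in mutants without the library labelled mutant 3 h female 2 Tiparp was the 1 gene called (0.104% of all genes), where it fell by 0.48 ± 0.074 (adjusted p = 0.0257). Bdnf, which encodes a neurotrophin, differed by 0.16 ± 0.071 at 1 h against 0 h in mutants (adjusted p = 0.407). Its mean level in mutants was 54.4 CPM at 0 h, 60.9 CPM at 1 h and 53.3 CPM at 3 h.

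Of 28 genes that have been reported as targets of Nr4a factors, 26 were tested. Much of this list is a group of genes for protein folding in the endoplasmic reticulum and its stress response, Hspa5 among them. The counts below take each gene singly and so are not counts of independent targets. In mutants at 1 h 2 rose, beside 0.312% of all genes, Fosl2 by 0.69 ± 0.093 (adjusted p = 0.00843) and Pdk4, which encodes a kinase that limits glucose oxidation, by 0.63 ± 0.11 (adjusted p = 0.0204), with a list median of 0.020. At 3 h in mutants 0 were called, and 12 had an unadjusted p under 0.05, all higher than at baseline, with a median of 0.17 against -0.005 over all genes, of which 1481 of 17285 had an unadjusted p under 0.05. In WT at 3 h 9 had an unadjusted p under 0.05, all higher, with a median of 0.12, beside 1436 of 17438 genes in all. Most of these 9 were of the folding group. Hspa5, a chaperone gene, had a mean level of 216 ± 15.5 CPM in baseline mutants and of 282 ± 26.7 CPM in those killed at 3 h, a log2 difference of 0.39 ± 0.064 (adjusted p = 0.280), and in WT it differed by 0.29 ± 0.12 (adjusted p = 0.597). From 1 h to 3 h Hspa5 differed by 0.072 ± 0.13 in WT (adjusted p = 0.951) and by 0.18 ± 0.063 in mutants (adjusted p = 0.527). In mutants 8 targets had an unadjusted p under 0.05 upward and 3 downward over that interval, beside 1387 of 17247 genes in all, and 0 were called.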

How the data were processed

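Dorsal hippocampus mRNA, selected with poly-T beads, was sequenced in 36 libraries. The deposited values are raw read counts per gene, made by the authors with RNA STAR 2.7.8a on mm10 and featureCounts 2.0.1, as the submitters' processing notes name them. The gene annotation and the strand and multi-mapping settings are not given in the sources used here. Rows without a gene symbol (1904 of 27179) held 1.284% of counts. The 8 libraries of a separate naive cohort were not analysed here.

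Each comparison was fitted on its own groups with the quasi-likelihood test of edgeR 4.0.16 (limma 3.58.1, R 4.3.3), with filterByExpr (minimum count 10), TMM scaling, labelled sex as covariate and Benjamini-Hochberg adjustment over all genes tested. An adjusted p under 0.05 was called. Interactions used the 4 groups concerned. CPM are TMM-scaled, and log2 CPM used a prior count of 2. No libraries were identical. Ratios were tested by exact permutation (SciPy 1.17.1, Python 3.11.15). DESeq2 1.42.0, other scaling, filters, covariates, a replicate block, and leaving out libraries were alternatives. The scripts were tested on simulated data. Named genes were the 3 members, for each member the 5 genes most correlated with it, 9 preset pathway genes and listed genes that were called. Utp14b and Dach1 were named after their values were seen. Members and lists were chosen with earlier results of these data known. Promoter sequences are from RefSeq (GRCm38.p6), matched for 3 of 3 members.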

Additional observations from a re-analysis of the deposited data

How the results depend on the processing

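The calls of members depended on the tool, the covariate, the libraries in the fit and single libraries. With DESeq2 and sex as covariate, calls were gained for Nr4a1 at 1 h against 0 h in mutants (0.74), Nr4a2 at 3 h against 0 h in mutants (0.41), and Nr4a2 and Nr4a3 at 3 h against 1 h in mutants (-0.32 and -0.43). With DESeq2, a prior on fold changes and no covariate, the gained calls were Nr4a1 (0.33), Nr4a2 at 3 h against 0 h (0.30) and Nr4a3 at 3 h against 1 h (-0.31). Without the libraries that went against their labels, Nr4a1 at 1 h in WT (0.91) and Nr4a3 at 3 h against 1 h in mutants (-0.50) were gained, and so were the ratios of Nr4a1 to Nr4a2 at 3 h against 1 h (-0.74) and of Nr4a2 to Nr4a3 at 3 h against 0 h (0.37) in mutants. The call of Nr4a3 at 1 h in mutants was lost without the sex covariate (0.54) and with all 36 libraries in a single fit (0.55), and also without the libraries labelled mutant 0 h male 3, mutant 0 h female 3 or mutant 1 h male 3. The cause was not tested.

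Differences close to 0 changed sign. For Nr4a1 at 3 h against 0 h these were -0.0022 with 10 counts required in every library and -0.0033 in the fit of all 36 libraries in WT, and in mutants 0.0019 with DESeq2 and a prior, 0.0049 without the sex covariate and 0.0004 in the fit of all 36. Without the libraries that went against their labels, mutant minus WT turned to -0.0071 for Nr4a1 and -0.021 for Nr4a3 at 1 h, and to -0.14 for Nr4a1 at 3 h. The genotype difference of Nr4a1 turned to -0.15 (1 h against 0 h) and -0.30 (3 h against 0 h), and that of Nr4a3 (3 h against 1 h) to 0.022. With sex taken from the counts, the genotype difference of Nr4a1 was -0.014 at 1 h and -0.038 at 3 h against 0 h.

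With each library left out in turn, the log2 difference of Nr4a1 in WT ran from 0.60 to 0.91 at 1 h against 0 h and from -0.085 to 0.076 at 3 h against 0 h, and in mutants from -0.31 to 0.14 at 3 h against 0 h. That of Nr4a2 in WT at 3 h against 0 h ran from -0.0023 to 0.12. That of Nr4a3 in mutants ran from 0.49 to 0.64 at 1 h against 0 h and from -0.50 to -0.38 at 3 h against 1 h. Mutant minus WT ran from -0.0071 to 0.30 for Nr4a1 and from -0.021 to 0.25 for Nr4a3 at 1 h, and from -0.14 to 0.25 for Nr4a1 at 3 h. The genotype difference of Nr4a1 ran from -0.15 to 0.15, from -0.30 to 0.14 and from -0.31 to 0.15 in the changes from 0 h to 1 h, from 0 h to 3 h and from 1 h to 3 h, and in the last of these that of Nr4a2 ran from -0.029 to 0.11 and that of Nr4a3 from -0.18 to 0.11. The ratio of Nr4a1 to Nr4a2 ran from -0.20 to 0.033 (WT, 3 h against 0 h) and from -0.095 to 0.17 (mutants, 1 h against 0 h), and that of Nr4a2 to Nr4a3 from -0.071 to 0.10 (WT, 3 h against 1 h). In mutants the ratio of Nr4a1 to Nr4a2 at 3 h against 1 h ran from -0.74 to -0.42, and that of Nr4a2 to Nr4a3 at 3 h against 0 h from 0.25 to 0.37. The number of genes called at 1 h in mutants ran from 26 to 86.

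Nothing in the labels says what a replicate number marks. Libraries of different groups with the same labelled sex and number deviated together in part. Their correlation ran from -0.49 to 0.61 over 90 pairs, with a median of 0.36 against -0.13 over 450 other pairs. Of the 90, 74 were over 0.1, and 20 of 36 libraries correlated best with their own sex and number. The other pairs include pairs of unlike sex, so the contrast mixes sex with number. These correlations are a hint from the data, and since not every pair was over 0.1 the numbers were not treated as pairs. With the replicate block, Nr4a2 and Nr4a3 at 1 h in mutants differed by 0.73 and 0.56 (adjusted p of 0.0395 and 0.0315), Nr4a1 at 3 h against 0 h in WT by -0.0070, and the genotype difference of Nr4a1 in the change to 3 h was -0.048. The replicate block changed no call of a member, and it gave 37 calls over all genes at 1 h in mutants against 54, 5 against 0 for mutant against WT at 1 h and 0 against 2 at 3 h.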
